A study of Mus musculus with 4 samples.

Results

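Gata1 blood progenitors are the early blood cells of the mouse gastrula, and this is a description of 159 of them among the 3494 cells of a single-cell library of early headfold (EHF) embryos, a share of 4.55% (exact binomial 95% interval 3.88 to 5.30%). A cell was taken as a Gata1 progenitor when it held at least 1 molecule count (UMI) of Gata1, at least 1 UMI in 2 or more of Cited4, Lmo2, Runx1, Ikzf1 and Nrip3, and less than 1% of its UMIs from the embryonic globins Hbb-bh1, Hba-x and Hbb-y together. The cells were thus selected on measured values of these 9 genes, whose levels are given below as a description of the selection. The other 3335 cells of the library were the comparison.

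The study followed cells of the primitive streak into the heart. Its mice carried a tamoxifen-inducible Cre driven by the T (Brachyury) gene and a Cre reporter, with the genotype TnEGP-CreERT2/+; R26Rtdtomato/R26Rtdtomato. A cell with active T while tamoxifen acts can thus be labelled, and it and its descendants then express tdTomato. The paper found tamoxifen active for at least a day at this dose, and proposes that low T left some ventricular progenitors unlabelled. For the EHF library 4 embryos of this genotype, collected at E7+14h after oral tamoxifen (0.08 mg/bw) at E7+7h, were pooled and dissociated with papain. Mid to late streak embryos (MS-LS, E6+21h, tamoxifen at E6+5h) and no bud to early bud embryos (OB-EB, E7+3h, tamoxifen at E6+21h) of the same genotype and dose gave 1 further library each. All embryos carried the transgene and all received tamoxifen, so the series holds no untreated or Cre-negative embryo.

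In the mouse, the first blood cells form in the yolk sac from extraembryonic mesoderm that left the posterior primitive streak. GATA1, a zinc-finger transcription factor, acts with TAL1, LMO2 and LDB1 in a complex that switches on erythroid genes, with KLF1 (EKLF) and GFI1B as partners and targets, and these same factors serve the megakaryocyte lineage. Endothelial cells of the yolk sac arise from closely related mesoderm and share TAL1, LMO2, FLI1 and HHEX with early blood, while KDR, the VEGF receptor, is retained on the endothelial side.

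A Gata1 UMI was found in 267 EHF cells, and they differed widely in how many of the 5 further markers they held. Of the 267, 72 cells had none of the 5 markers and 26 had 1, while 39 had 2, 64 had 3, 50 had 4 and 16 had all 5. The 10 cells with 2 or more markers but at least 1% globin were set apart as globin-rich cells. Just inside the globin limit lay cells at 0.996%, 0.996%, 0.921% and 0.892% of UMIs, and just outside it cells at 1.03%, 1.06%, 1.07% and 1.08%, so the limit cuts a continuous range.

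**Figure D1:**
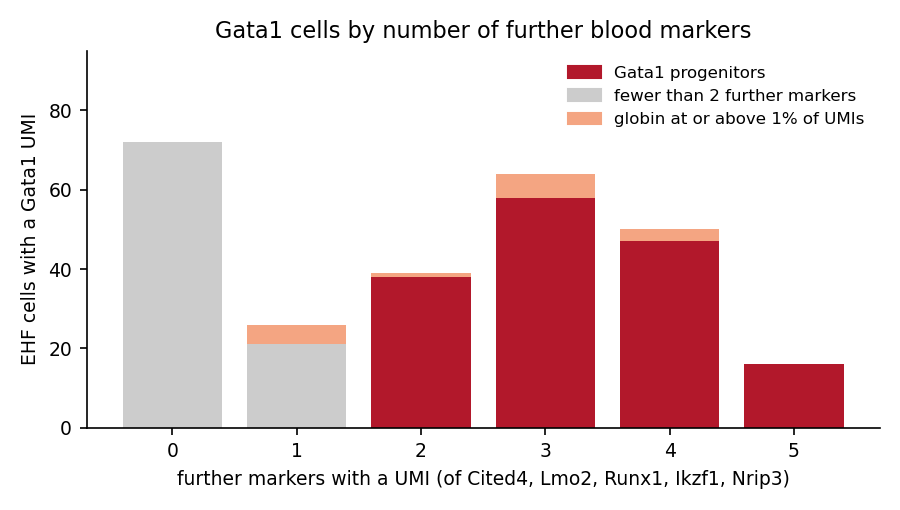
EHF cells with at least 1 Gata1 UMI (y axis, number of cells) by how many of the 5 further markers also had a UMI (x axis). Red marks the 159 Gata1 progenitors, grey the cells with fewer than 2 further markers, of which 72 had none, and orange the cells with at least 1% of UMIs from the embryonic globins.

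Among the 159 Gata1 progenitors, 83 held 1 Gata1 UMI, 45 held 2, 24 held 3 and 7 held 4 to 6. Cited4 had a UMI in 149 of them and Lmo2 in 148. Runx1 was seen in 85, Ikzf1 in 68 and Nrip3 in 68. Hbb-bh1, the early embryonic beta-type globin, had a UMI in 131 cells with a median of 8 and a maximum of 64, Hba-x in 28 cells and Hbb-y in 16. The globin share ranged from 0 in 22 cells to 0.996%, with a median of 0.141%.

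Gata1 alone did not mark blood in this library. Of 224 extraembryonic (Exe) ectoderm comparison cells, taken by at least 3 of 6 trophoblast markers (Elf5, Wnt7b, Rhox6, Rhox9, Esrrb and Gjb5), 29 (12.9%) had a Gata1 UMI, at a summed Gata1 level of 21.1 UMIs per 1000000 UMIs of the cell group (CPM) against 0 UMIs of Gfi1b and 2 of Klf1. The 72 Gata1 cells without a further marker carried Elf5, a trophoblast transcription factor, at 136 CPM (95% counting interval 107 to 170) and held 1 UMI of Klf1. Of these 72, 27 were among the Exe ectoderm comparison cells. At least 3 of 26 listed haematopoietic factors had a UMI in 34 of the 72 (47.2%), in 37.1% of Exe ectoderm and 25.5% of other EHF cells. Median depths were 7502, 7624 and 5576 UMIs in that order, and the part of depth was not tested. No Gata1 progenitor was among the Exe ectoderm comparison cells, and the whole Exe ectoderm marker list of 10 genes summed to 13 UMIs in them, 0 in 148 of the 159 cells, with Elf5 at 1 UMI.

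The EHF library held 20376539 UMIs at a median of 5584 per cell, and the Gata1 progenitors 978237 UMIs at a median of 5788 (1824 to 19078) and 2114 genes, against 5576 UMIs in the other cells. The MS-LS and OB-EB libraries held 3635 and 3994 cells at medians of 4251 and 2620.5 UMIs. A second EHF sample had a table with the same count in all 65128160 places and was counted as 1 sample. The libraries shared 12 to 18 cell barcodes in pairs. The default doublet caller (Scrublet) marked 13 of 3494 cells, too few to be taken as working, and 8 of the 159 Gata1 progenitors (5.03%) were among the 5% of cells with the highest scores. With 1 library per stage and cells that are not replicates, no test was made here, and all intervals cover counting error only and not the spread between embryos.

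The Gata1 progenitors differed from the other EHF cells first in blood transcription factors that the selection did not use. Levels in CPM are summed UMIs per 1000000 of all UMIs of a cell group, and a gene is counted as higher or lower when its level differed by more than 2-fold with a 95% counting interval of the ratio that excludes 1. Of 11171 genes with at least 50 UMIs, 420 (3.76%) were higher and 1363 (12.2%) lower in the Gata1 progenitors, with a median log2 ratio of -0.14. Because the cells were chosen on blood genes in this same contrast, these shares and the counts below describe the selected cells and are no evidence for the selection.

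Of 26 haematopoietic factors in the list, 19 had enough UMIs, of which 14 were higher, 1 lower and 4 neither, with a median log2 ratio of 2.14. Gfi1b, a repressor needed for erythroid and megakaryocyte maturation, showed the largest ratio of the 12 genes named as highest against other EHF cells. It had 63 UMIs in 49 of the 159 cells, at 64.4 CPM against 2.22 in the other cells (log2 ratio 4.86, 95% interval 4.28 to 5.46). Klf1, which activates the globin genes, had 73 UMIs in 55 cells and reached 74.6 against 2.94 CPM (log2 ratio 4.67, 4.15 to 5.19). Gfi1b thus had no UMI in 110 cells and Klf1 none in 104, and no cell held more than 3 of either.

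Tal1, the stem cell leukaemia factor at the root of all blood, was more widely seen, with 126 UMIs in 86 cells and 129 against 10.8 CPM (log2 ratio 3.58, 3.25 to 3.91). Myb, needed for definitive progenitors, stood at 45.0 against 2.89 CPM, Fli1 at 72.6 against 7.68, Hhex at 79.7 against 11.8, Gata2 at 78.7 against 17.8, and Zfpm1, the GATA1 cofactor FOG1, at 88.9 against 18.6. Lower was Meis1, at 3.07 against 19.7 CPM. Erg, Gfi1, Mecom, Bcl11a and Hoxa9, genes of definitive or later haematopoiesis, had no UMI in any of the 159 cells. None of these genes without a UMI was counted as lower than in the other cells.

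The promoters of Gfi1b, Klf1, Tal1 and Fgf3 are shown because these genes were among the 12 with the highest ratios and their RefSeq windows (250 bases before to 50 after the transcription start, GRCm38.p6, each written 5′ to 3′ on the gene's strand) hold the GATA-factor motif. Capitals mark the 6 letters AGATAA, the same letters ending in G, and both of these starting with T in place of the first A, on either strand.
Gfi1b, chr2:28621933-28622232 (-): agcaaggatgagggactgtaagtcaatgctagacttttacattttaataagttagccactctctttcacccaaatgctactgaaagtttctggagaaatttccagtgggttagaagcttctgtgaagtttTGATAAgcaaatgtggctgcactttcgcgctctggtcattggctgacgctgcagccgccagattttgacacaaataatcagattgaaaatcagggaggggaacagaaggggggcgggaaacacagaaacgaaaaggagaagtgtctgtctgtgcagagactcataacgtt
Klf1, chr8:84901732-84902031 (+): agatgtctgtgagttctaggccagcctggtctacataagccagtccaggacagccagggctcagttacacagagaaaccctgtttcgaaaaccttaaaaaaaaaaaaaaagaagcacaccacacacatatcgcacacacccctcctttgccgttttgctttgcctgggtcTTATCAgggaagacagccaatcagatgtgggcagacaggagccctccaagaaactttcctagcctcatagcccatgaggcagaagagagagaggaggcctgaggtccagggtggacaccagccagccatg
Tal1, chr4:115056176-115056475 (+): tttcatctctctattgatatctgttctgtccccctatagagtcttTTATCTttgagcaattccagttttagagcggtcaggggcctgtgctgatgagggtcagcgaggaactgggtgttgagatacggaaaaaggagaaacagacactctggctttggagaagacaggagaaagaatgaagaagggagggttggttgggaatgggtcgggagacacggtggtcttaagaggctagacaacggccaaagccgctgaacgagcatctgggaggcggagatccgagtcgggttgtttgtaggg
Fgf3, chr7:144838362-144838661 (+): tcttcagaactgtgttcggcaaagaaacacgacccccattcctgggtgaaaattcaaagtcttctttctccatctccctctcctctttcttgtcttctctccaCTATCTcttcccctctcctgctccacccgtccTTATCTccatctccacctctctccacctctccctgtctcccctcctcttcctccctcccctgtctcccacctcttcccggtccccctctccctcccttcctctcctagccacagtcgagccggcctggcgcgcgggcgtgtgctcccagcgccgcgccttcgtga
The match starts 120 bases before the start of Gfi1b, 80 before that of Klf1 and 205 before that of Tal1, and Fgf3 has matches that start 147 and 115 bases before its start. Windows were given for 6 of the 12 genes, and 4 of their 8 windows held a match, 1 in each of 4 genes, while 0 of the 4 windows given for the 8 genes lowest in the Gata1 progenitors did. Of all 32851 windows, 29.8% held a match, as did 33.0% of all genes with a window, so a match is a common feature and is described here only as letters in the window.

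Erythroid genes were the next group. Of 26 listed erythroid genes in the table, 14 had enough UMIs, of which 12 were higher, 1 lower and 1 neither, with a median log2 ratio of 2.80. Car2, carbonic anhydrase II, was the most widely seen, with 524 UMIs in 141 of the 159 cells and 536 against 79.3 CPM (log2 ratio 2.75, 2.61 to 2.90). Gypc, a red cell membrane protein, reached 56.2 against 3.35, and Epor, the erythropoietin receptor, 45.0 against 2.84. Smim1, the carrier of the Vel blood group, reached 209 against 30.9 CPM and Sptb, the erythroid spectrin beta chain, 26.6 against 1.91.

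Several genes of late red cells had few UMIs. Ank1 stood at 3.07 and Hemgn at 4.09 CPM, and Epb42 at 15.3 CPM on 15 UMIs in 14 cells. The adult beta globin Hbb-bs was counted as higher than in the other cells, on 9 UMIs in 8 cells. Adult alpha globin Hba-a1 stood at 31.7 against 5.05 CPM, seen in 9.43% of the Gata1 progenitors. Its level is uncertain because Hba-a2 is a near-identical copy. Lower was the metallothionein Mt1, at 308 against 631 CPM.

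Part of the heme pathway was higher. Of 18 heme and iron genes with enough UMIs, 7 were higher, 1 lower and 10 neither (median log2 ratio 0.44). Alas2, the erythroid form of the first enzyme of the pathway, stood at 38.8 against 2.27 CPM (log2 ratio 4.10, 3.43 to 4.76), whereas Alas1, the form used by other tissues, had 1 UMI in the Gata1 progenitors and 7.17 CPM elsewhere. Cpox, a later enzyme, had 139 against 36.8 CPM, and the mitochondrial transporters Abcb10 and Slc25a37 had 63.4 against 11.5 and 46.0 against 11.4. Urod, a middle enzyme, stood at 51.1 against 45.6 CPM and did not pass 2-fold. Ftl1 and Tfrc, for iron storage and uptake, were close to level, with log2 ratios of 0.04 and 0.11.

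Megakaryocyte genes were partly higher than in the other EHF cells, and myeloid genes were sparse. Of 4 megakaryocyte genes with enough UMIs, 3 were higher: Itga2b (CD41), the integrin of the first blood progenitors and platelets, with 40 UMIs in 31 cells and 40.9 against 1.44 CPM, the thrombin receptor F2r with 200 against 32.2, and the small GTPase Rap1b with 601 against 238. Itgb3, the partner chain of Itga2b, had 17 UMIs, while the platelet genes Pf4 and Gp1bb had 2 and 1 UMIs, and Vwf and Plek had none. Of 3 myeloid genes with enough UMIs none was higher or lower. The 15 myeloid genes together had 69 UMIs in the 159 cells, and 111 cells had none. Among them Csf2rb, the shared chain of the IL-3 and GM-CSF receptors, had 20 UMIs in 15 cells (20.4 against 0.464 CPM), and Spi1 (PU.1) 10 UMIs in 10 cells, both below the limit of 50 UMIs over both groups. Coro1a and Irf8 had no UMI, and Mpo and Lyz2 had 1 each.

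**Figure D2:**
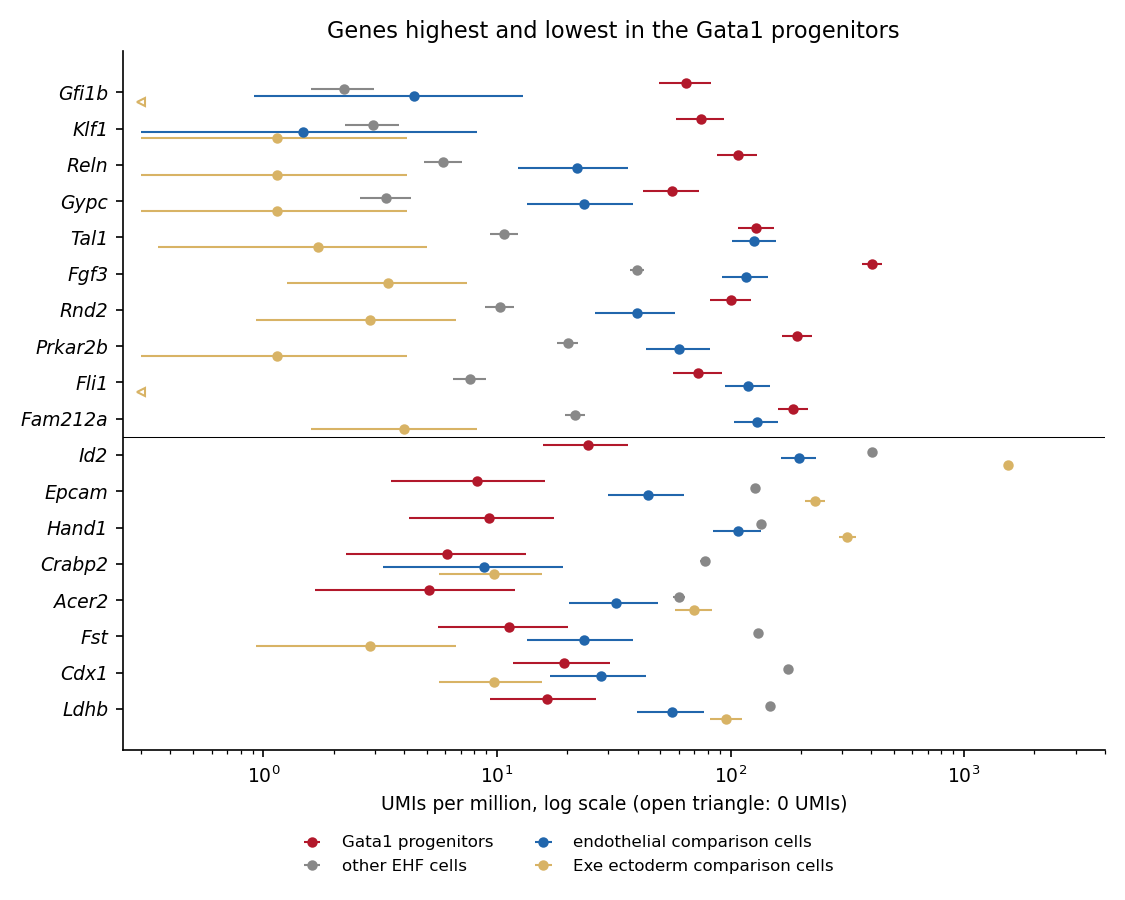
Level of 10 of the 12 genes with the highest and of the 8 with the lowest ratio in Gata1 progenitors over other EHF cells (x axis, CPM on a log scale, error bars 95% counting intervals, open triangles 0 UMIs). Red points are Gata1 progenitors, grey other EHF cells, blue endothelial and yellow Exe ectoderm comparison cells. Tal1 (129 and 127) and Fli1 (72.6 and 119) differ by less than 2-fold between Gata1 progenitors and endothelial cells, while Gfi1b and Klf1 stand far lower in the latter.

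Beyond the blood lists, the genes with the highest ratios included a growth factor and several genes not known mainly from blood. Fgf3, a secreted fibroblast growth factor, was the most widely seen of the 12, with 395 UMIs in 135 of the 159 cells (84.9%) and 404 against 39.7 CPM (log2 ratio 3.35, 3.17 to 3.52), against a UMI in 14.2% of the other cells. With every cell thinned to 2000 UMIs, Fgf3 was still seen in 56.7% of 157 Gata1 progenitors, in 7.43% of 3028 other cells and in 0 of 223 Exe ectoderm cells, which allows a share of up to 1.64% of cells with a UMI. Reln, the secreted glycoprotein reelin, had 107 against 5.88 CPM in 71 cells. Rnd2, a small GTPase, stood at 100 against 10.3, Prkar2b, a regulatory subunit of protein kinase A, at 193 against 20.1, and Fam212a at 186 against 21.6 CPM. Cells were called female or male by Xist and 4 Y-linked genes, and in 99 female and 16 male Gata1 progenitors Fgf3 had 412 and 436 CPM, Gfi1b 62.4 and 64.9, Klf1 59.2 and 55.6 and Tal1 120 and 139. In each sex these 4 genes stood above their level in the other EHF cells, which were of both sexes.

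The genes lowest in the Gata1 progenitors included epithelial and mesoderm genes. Id2, an inhibitor of basic helix-loop-helix factors, had 24 UMIs in the 159 cells and 24.5 against 405 CPM (log2 ratio -4.04, -4.69 to -3.47). Epcam, an epithelial adhesion protein, had 8.18 against 127, and Hand1, a factor of lateral and extraembryonic mesoderm, 9.20 against 135. Crabp2, a retinoic acid carrier, Acer2, a ceramidase, the activin antagonist Fst, Cdx1 of the posterior body and the lactate dehydrogenase Ldhb had log2 ratios from -3.67 to -3.17. Id1 and Id3, targets of BMP signalling, were also lower, at 36.8 against 180 and 108 against 395 CPM, with the BMP receptor Bmpr1a at 22.5 against 50.1 and Smad1 at 16.4 against 34.6. In the list of 24 surface and signalling genes with enough UMIs, 3 were higher, 6 lower and 15 neither (median log2 ratio -0.38), the higher ones being Kit (26.6 against 8.45 CPM), Epor and Stat5a.

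Markers of the other germ layers were low. Of 10 Exe endoderm markers all 10 were lower, of 10 Exe ectoderm markers 9, of 18 mesoderm markers with enough UMIs 14, of 8 neural and surface ectoderm markers 6 and of 9 definitive endoderm and notochord markers 6. T itself, the gene that drives the Cre, stood at 14.3 against 93.0 CPM in the EHF cells. Of 4 germ cell markers Pou5f1 was lower (33.7 against 251 CPM) and Ifitm3, an interferon-induced membrane gene, higher (82.8 against 29.95).

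The Exe endoderm list needs a separate value, because 2 of the 159 cells held 1.78% and 1.49% of their UMIs in these 10 genes. The pair had 19078 and 14010 UMIs, and the first was among the 5% of cells with the highest doublet scores. They carried 189 of the 258 Ttr UMIs and 127 of the 151 Rbp4 UMIs of all Gata1 progenitors. Without them the list summed to 196 CPM (169 to 226) in place of 748, against 3585 in the other cells, and 428 genes in place of 420 were higher and 1401 in place of 1363 lower.

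Cycling and most glycolysis genes stood close to the rest of the embryo, while the actin and adhesion list had 1 gene higher, 4 lower and 12 neither (median log2 ratio -0.33). Of 49 G2/M genes none was higher or lower, and of 40 S phase genes 1, Dscc1, was lower, with list medians of -0.00 on the log2 scale in both. Of 18 glycolysis genes 15 did not pass, and the exceptions were Hk1, a hexokinase, with 46.0 against 8.51 CPM, and the glucose transporters Slc2a1 (94.0 against 252) and Slc2a3 (213 against 564). Of 17 actin and adhesion genes, Fn1 (fibronectin) was higher, with 408 against 174 CPM and a UMI in 81.1% of the Gata1 progenitors, and the cadherins Cdh1, Cdh2 and Cdh11 and Epcam were lower, Cdh11 with no UMI.

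**Figure D3:**
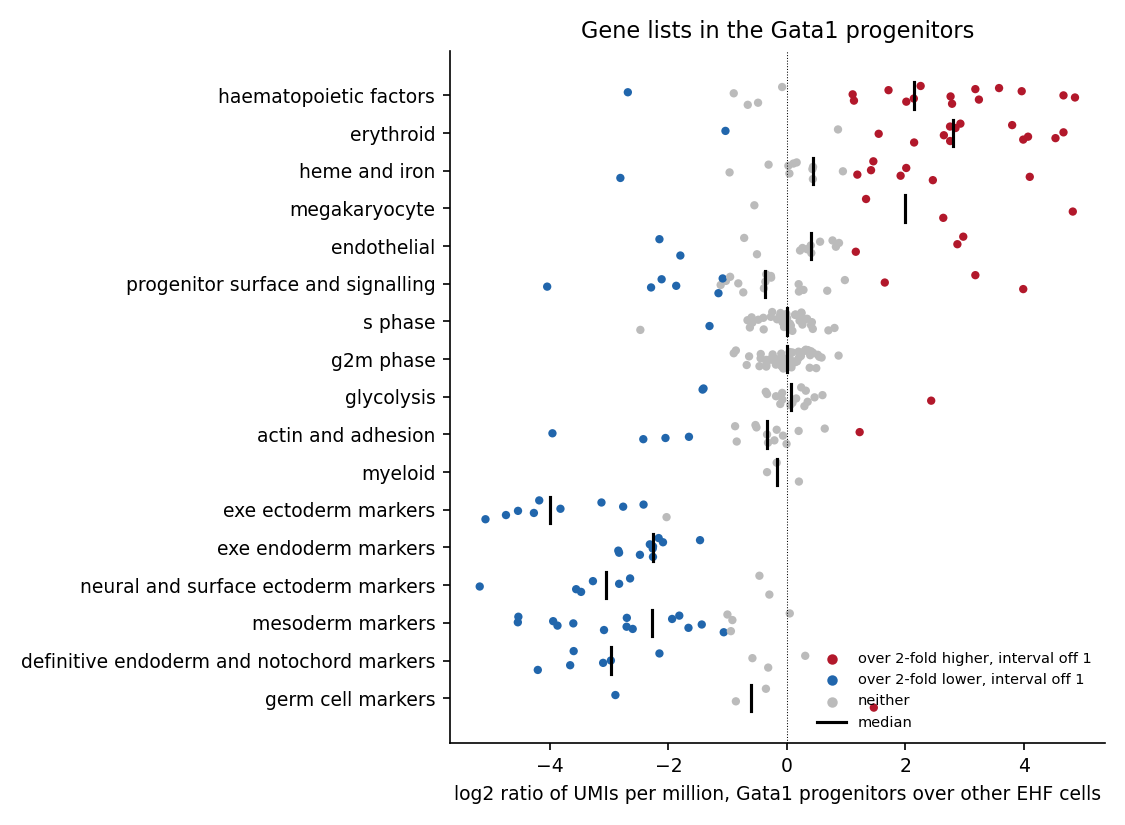
Log2 ratio of CPM in Gata1 progenitors over other EHF cells (x axis) for each gene with at least 50 UMIs in 17 gene lists (y axis, rule genes left out). Red and blue points passed 2-fold with a counting interval off 1, grey points did not, and black bars are list medians. Medians are 2.14 for haematopoietic factors and 2.80 for erythroid genes, -0.17 for myeloid and 0.41 for endothelial genes, below 0 for the germ layer and extraembryonic marker lists, and near 0 for cell cycle genes.

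Endothelial cells are the closest relatives of early blood, and a group of 93 EHF cells without Gata1, with under 1% globin and with at least 3 of 9 endothelial genes (Kdr, Cdh5, Pecam1, Tek, Esam, Ramp2, Egfl7, Plvap and Sox17) was compared. Of 4011 genes with at least 50 UMIs, 138 (3.44%) were higher and 248 (6.18%) lower in the Gata1 progenitors. The group had a median of 6204 UMIs, and 9 of its 93 cells (9.68%) were among the highest doublet scores. It held more Exe endoderm RNA than the Gata1 progenitors, with 10 of 93 cells above 0.5% of UMIs against 2 of 159, and all 9 endoderm markers with enough UMIs were lower in the Gata1 progenitors. Without these cells on both sides 136 genes were higher and 182 lower.

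Of 12 haematopoietic factors, 3 were higher in the Gata1 progenitors and 9 were neither. The groups were chosen on having or lacking a Gata1 UMI, so counts of blood genes here and below describe that choice. Tal1 was level, at 129 against 127 CPM (log2 ratio 0.03, -0.38 to 0.44), and Gata2 at 78.7 against 54.4 (0.53, -0.05 to 1.14). Fli1 and Hhex stood lower but within 2-fold, at 72.6 against 119 and 79.7 against 125. Gfi1b stood at 64.4 against 4.42 and Klf1 at 74.6 against 1.47 CPM, the latter on 1 UMI in the endothelial cells (log2 ratio 5.66, 3.14 to 11.0). Zfpm1 had 88.9 against 38.3, and without the endoderm-rich cells it no longer passed 2-fold (log2 ratio 0.99).

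Of 9 erythroid genes 7 were higher and of 11 heme and iron genes 4. Of 2 megakaryocyte genes with enough UMIs neither was higher or lower, at log2 ratios of 0.50 and 0.92. Thinned to 2000 UMIs, F2r was seen in 36.9% of 157 Gata1 progenitors, 21.1% of 90 endothelial cells and 6.90% of 3028 other cells. Smim1 had 209 against 33.8 CPM, and the tetraspanin Tspan33 101 against 7.36. Blvrb, biliverdin reductase B, had 92.0 against 16.2 CPM. Ssx2ip and Slc1a3, a centrosomal protein and a glutamate transporter, stood at 92.0 against 8.83 and 81.8 against 11.8. Fgf3 had 404 against 116 CPM, and thinned to 2000 UMIs it was seen in 22.2% of 90 endothelial cells.

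Against the other EHF cells as a whole, 16 genes of the endothelial list had enough UMIs. Of these, 3 were higher (Egfl7, Tek and Pecam1), 2 lower (Sox17 and Apln) and 11 neither. Against the endothelial comparison cells, all 8 endothelial genes with enough UMIs were lower in the Gata1 progenitors. Kdr had 23 UMIs in 16 of the 159 cells, at 23.5 against 284 CPM (log2 ratio -3.60, -4.29 to -2.97). Kdr, Tek, Ramp2 and Egfl7 were among the genes that chose the endothelial cells, so their direction was set by that choice. The other 4 were not used: Etv2, the factor that founds the haemato-endothelial lineage, at 37.8 against 184, the VEGF receptor Flt1 at 17.4 against 104, the apelin receptor Aplnr at 16.4 against 75.0 and Ecscr at 10.2 against 58.9 CPM. Stard8, Dlk1, a Notch-pathway ligand, the kinase Sgk1 and the keratin Krt8 were also among the 6 lowest (log2 ratios -4.09, -3.87, -3.75 and -3.33). Without the endoderm-rich cells Dlk1 and Sgk1 were below the 50 UMI limit, at log2 ratios of -4.45 (-6.79 to -2.80) and -3.77 (-6.15 to -2.06), and Spink1, at 265 against 2740 CPM, stood at 624 in the endothelial cells without them. Vim and Tmsb4x, of the mesenchymal cytoskeleton, were also lower, and Id1, Id2 and Id3 had log2 ratios of -2.42, -2.996 and -2.06. Of 32 S phase genes Blm and Chaf1b were higher and of 35 G2/M genes Mki67, the latter at 103 against 50.03 CPM, but without the endoderm-rich cells Chaf1b and Mki67 no longer passed 2-fold.

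**Figure D4:**
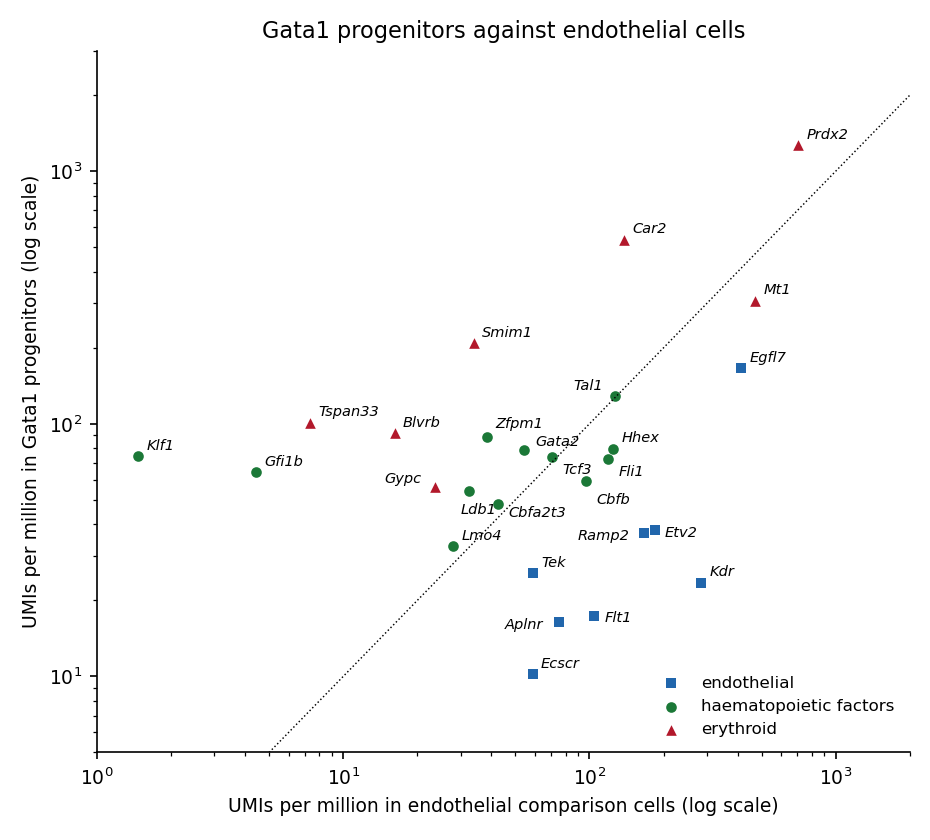
CPM in Gata1 progenitors (y axis) against 93 endothelial comparison cells (x axis), both on log scales, for genes of the haematopoietic (green), erythroid (red) and endothelial (blue) lists with at least 50 UMIs. The dotted line marks equal levels: Tal1 lies on it, Klf1 and Gfi1b far above it, and all 8 endothelial genes below it.

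Globin-rich cells were the other neighbour. Only 10 EHF cells met the Gata1 and marker parts of the rule with at least 1% globin, with 48440 UMIs in all and globin shares from 1.03 to 2.07%. Of 2781 genes with at least 50 UMIs, 36 (1.29%) were higher and 28 (1.01%) lower in the Gata1 progenitors. This split turned with the rule, to 80 and 13 with globin under 0.5%, 7 and 49 with globin under 2%, and 15 and 31 with at least 2 Gata1 UMIs. The named genes on the higher side rest on very few UMIs in the 10 cells: Phlda2, Pum3, Rnf10, Sptssa and Impad1 had 1 UMI each there, at log2 ratios from 2.62 to 2.98, with Phlda2 spanning 0.48 to 8.29. Ttr had 2 UMIs there and 258 in the Gata1 progenitors, of which 189 came from the endoderm-rich pair. Fn1 was higher, at 408 against 145 CPM (log2 ratio 1.497, 0.44 to 2.82).

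Blvrb, of heme breakdown, was the clearest gene on the lower side, at 92.0 against 351 CPM (log2 ratio -1.93, -2.69 to -1.09), and Alad, the second enzyme of heme synthesis, had 57.2 against 165. Cdca4, Ppil3, Itgb1bp1, Adprh and Rfc4 followed, at log2 ratios from -1.72 to -1.58 on 7 to 9 UMIs each in the globin-rich cells. Klf1, at 74.6 against 124 CPM, and Tal1, at 129 against 145, had intervals that included equal levels, and 11 haematopoietic factors had no call. Taking instead all 33 EHF cells with at least 1% globin, of which 15 had a Gata1 UMI, 111 genes were higher and 20 lower in the Gata1 progenitors, but these 33 cells had a median of only 3292 UMIs.

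Within the Gata1 progenitors the globin share was used to order the cells into 68 with under 0.1%, 42 with 0.1 to 0.3% and 49 with 0.3 to 1% of UMIs. Depth moved with it, with medians of 6608, 5642 and 5033 UMIs in that order. Comparing the highest with the lowest bin, 7 of 2140 genes (0.327%) were higher and 50 (2.34%) lower, and the 7 include Hbb-bh1 and Hba-x, which helped to define the bins. The rest of the 7 were Klf1, Blvrb, Rgs10, AI506816 and Mat2b, the last 3 at log2 ratios of 1.36, 1.17 and 1.16. Of 7 erythroid genes with enough UMIs, 2 were higher, Klf1 and Blvrb, and 5 were neither. Of 8 haematopoietic factors 1 was higher (Klf1), 2 were lower (Gata2 and Fli1) and 5 were neither. None of 4 heme and iron genes was higher or lower. Klf1 was at 36.2 (21.1 to 57.9), 72.1 (42.7 to 114) and 147 (104 to 202) CPM in the 3 bins, a log2 ratio of 2.02 (1.16 to 2.94) between the outer ones. Blvrb stood at 40.4, 136 and 143 CPM (log2 ratio 1.82, 0.99 to 2.70). Itga2b showed 17.0 (7.35 to 33.6), 48.0 and 77.3 (47.2 to 119) CPM, on fewer than 50 UMIs in the outer bins together. Tspan33 stood at 70.2, 120 and 139 CPM, which is under 2-fold between the outer bins.

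Gata2 and Fli1 went the other way. Gata2, which precedes Gata1 in blood progenitors, was at 111 (82.7 to 145), 48.0 and 50.3 (26.8 to 85.95) CPM (log2 ratio -1.14, -2.14 to -0.24). Fli1, shared with endothelium, was at 97.9, 60.0 and 38.7 (log2 ratio -1.34, -2.49 to -0.33), and F2r at 247, 184 and 132 CPM, which is under 2-fold. Id3 had 179, 60.0 and 27.1 CPM, and Rspo3, a Wnt-potentiating secreted protein named here after its values were seen, 126, 76.1 and 7.73. Tal1 (119, 148 and 128), Gfi1b (76.6, 52.0 and 54.1) and Fgf3 (396, 392 and 429) had log2 ratios between the outer bins whose intervals included 0.

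The endoderm-rich pair lay in the lowest globin bin. Exe endoderm genes in that bin moved with it, Ttr at 470 against 77.3 CPM in the highest bin. Without the pair the log2 ratio of Ttr was 0.08 in place of -2.61, and 9 genes were higher and 35 lower. Klf1 (1.92), Gata2 (-1.22), Fli1 (-1.38), Id3 (-2.70) and Rspo3 (-4.13) kept their side without the pair. Cells among the highest 5% of doublet scores lay mostly in the lowest bin, with 7 of 68 cells (10.3%). The middle bin held 1 of 42 and the highest bin 0 of 49. The part of doublets in the differences between bins was not tested.

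**Figure D5:**
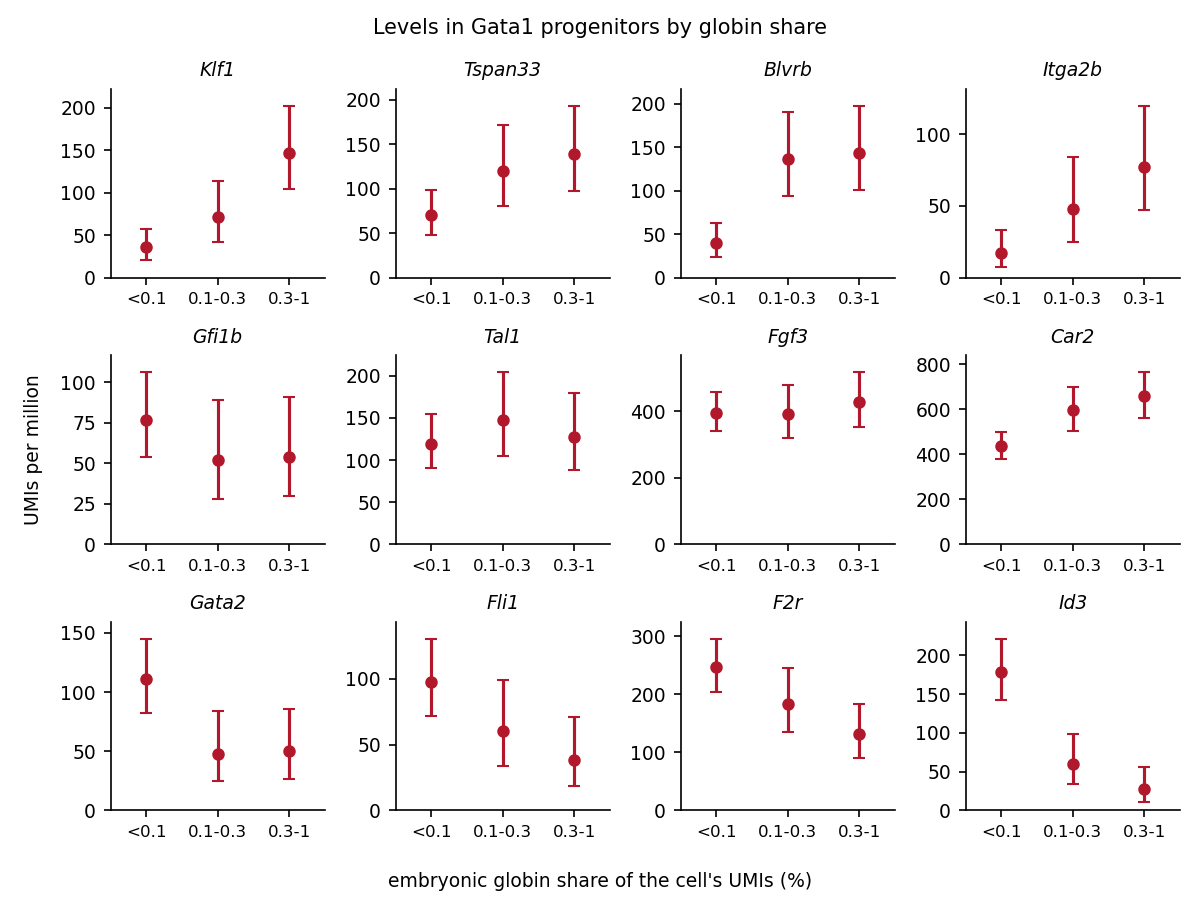
CPM (y axes, from 0) of 12 genes in Gata1 progenitors with under 0.1%, 0.1 to 0.3% and 0.3 to 1% of UMIs from embryonic globins (x axes; 68, 42 and 49 cells). Points are summed levels and bars 95% counting intervals. Klf1, Blvrb and Itga2b stand higher and Gata2, Fli1, F2r and Id3 lower in the bin with the most globin, and Tal1 and Fgf3 stand level.

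A UMI in at least 2 of the 9 endothelial genes was found in 55 Gata1 progenitors, which had a median of 7012 UMIs against 5228 in the other 104 and so stood deeper. They held less Hbb-bh1, at 1017 (922 to 1118) against 2660 (2527 to 2799) CPM, and 39 of them were in the lowest globin bin. Blvrb stood at 40.8 (23.7 to 65.3) against 130 (102 to 164) CPM. Klf1 was at 45.6 (27.4 to 71.2) against 96.2 (72.3 to 126). Id3 was at 161 (125 to 204) against 69.5 (49.4 to 95) CPM. Among the highest 5% of doublet scores were 5 of the 55 cells (9.09%) and 3 of the 104 (2.9%). Both endoderm-rich cells were among the 55. The part of depth, doublets and the endoderm-rich pair in these differences was not tested.

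By the number of Gata1 UMIs, Klf1 levels had overlapping intervals and Fgf3 levels did not, while depth moved too, with medians of 5232 UMIs in cells with 1 Gata1 UMI and 6421 in cells with 3 or more. In the 83 cells with 1 Gata1 UMI, Klf1 stood at 77.0 (53.6 to 107) CPM, and in the 31 cells with 3 or more at 63.7 (34.8 to 107). Fgf3 stood at 339 (287 to 397) in the first and at 505 (416 to 608) in the second. By the number of further markers, the median number of the 26 haematopoietic factors with a UMI was 4.5 in the 38 cells with 2 markers, 4 in the 58 with 3, 6 in the 47 with 4 and 6 in the 16 with 5. Depth moved with it, at medians of 5228, 5864, 6182 and 5891 UMIs in that order, and its part was not tested. The 21 low-globin Gata1 cells with only 1 further marker had a median of 2 factors at a median of 4422 UMIs.

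Cells with the blood profile also lay outside the rule. Among cells with no Gata1 UMI and under 1% globin, 58 held at least 3 of the 5 further markers, at a median of 5150 UMIs. They had Fgf3 at 398 (334 to 471), Tal1 at 148 (110 to 196) and Klf1 at 50.5 (29.4 to 80.8) CPM, with intervals that overlap those of the Gata1 progenitors. Gfi1b stood at 32.7 (16.3 to 58.5), and Hbb-bh1 at 1538 (1409 to 1677) CPM. The count of 159 is by its rule a count of cells in which Gata1 was sampled.

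tdTomato, a mark of cells with T activity while tamoxifen acted and of their descendants, was rare in the Gata1 progenitors. A tdTomato UMI was present in 9 of 159 cells (5.66%, exact binomial interval 2.62 to 10.5%), against 394 of 3335 other EHF cells (11.8%, 10.7 to 13.0%) and 3 of 224 Exe ectoderm cells (1.34%, 0.277 to 3.86%, at a median of 7624 UMIs). On the log-normalised scale with a cut above 1 (natural log of 1 plus UMIs per 10000), 1 Gata1 progenitor was positive (0.629%, 0.0159 to 3.45%), 275 other cells (8.25%, 7.33 to 9.23%) and no Exe ectoderm cell, 0 of 224, which allows a share of up to 1.63%. Thinned to 2000 UMIs, 1 of 157 Gata1 progenitors (0.637%, 0.0161 to 3.50%) had a tdTomato UMI against 176 of 3028 other cells (5.81%, 5.01 to 6.71%) and 2 of 223 Exe ectoderm cells (0.897%). The endothelial comparison cells had 4 positive cells of 93 (4.30%, 1.18 to 10.7%), and 2 of 90 when thinned (2.22%, 0.270 to 7.80%). At equal depth the interval of the Gata1 progenitors lay below that of the other EHF cells and overlapped those of the Exe ectoderm (0.109 to 3.20%) and endothelial cells.

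At the earlier stages the same rule found almost no cell. In the MS-LS library 0 of 3635 cells met it, which allows a share of up to 0.101%, although 33 cells had a Gata1 UMI. In the OB-EB library 7 of 3994 cells met it (0.175%, 0.0705 to 0.361%), of 36 with a Gata1 UMI. Thinned to 2000 UMIs per cell, the shares were 0 of 3404, 2 of 2939 (0.0681%) and 59 of 3185 (1.85%, 1.41 to 2.38%) at MS-LS, OB-EB and EHF, with 231, 1055 and 309 shallower cells left out. At equal depth the EHF share stood above both, while the intervals of the 2 earlier stages overlapped (up to 0.108% at MS-LS and 0.00824 to 0.246% at OB-EB). Each stage is 1 library, and stage, time of tamoxifen and library cannot be told apart.

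The 7 OB-EB cells had 2493 to 7536 UMIs. Lmo2 was present in all 7, Runx1, Tal1, Fli1 and Egfl7 in 4 each, and Cited4 in 1, where it was in 149 of the 159 EHF cells. Gfi1b and Klf1 had no UMI, which at 3 UMIs over the 7 cells allows up to 103 CPM, above their EHF levels, so a difference was not detectable at this depth. Hbb-bh1 had 1 UMI. Hba-x and Hbb-y were not in that table, so the globin share there rests on Hbb-bh1.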

How the data were processed

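The authors deposited UMI counts per gene and cell for 3 Chromium 3′ libraries, with the EHF table given for 2 samples and counted as 1. Per the labels and the study's methods, reads were counted with Cell Ranger 3.0.2 on GRCm38 with added vector sequences, and cells with few genes or UMIs or much mitochondrial RNA were removed. UMI counts were used as deposited.

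Counts were summed over each cell group and divided by its total (CPM, UMIs per 1000000). Ratios have 95% exact conditional binomial intervals, levels exact Poisson intervals and shares exact Clopper-Pearson intervals. A gene at 0 was set against 3 UMIs. Genes with at least 50 UMIs over both groups were compared, and named were the 12 highest and 8 lowest against other cells and the 6 each way against globin-rich and endothelial cells, seen in at least 25% of the higher group's cells, beside genes of 17 lists. Rule genes, mitochondrial, ribosomal and sex-linked genes and vector features were left out. A few genes that met these limits are not reported here.

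The Gata1 progenitors, lists and comparisons were chosen with earlier results of these data known. With 1 library per stage no test across samples was possible. Alternatives changed the rule's limits, depth, doublets, sex, averaging, minimum UMIs and fold. Those that leave out endoderm-rich cells, take all globin-rich cells or take cells with 3 markers regardless of Gata1 were chosen after the data were seen. Scripts were run with scanpy 1.11.5, matplotlib 3.10.9 and scipy 1.17.1 under Python 3.11.15, with pandas 2.3.3 over numpy 2.4.6, and were tested on simulated data.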

Additional observations from a re-analysis of the deposited data

How the results depend on the processing

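The number of Gata1 progenitors, 159, became 76 with at least 2 Gata1 UMIs, 59 in cells thinned to 2000 UMIs and 99 in cells with Xist and no Y-linked UMI. Against other EHF cells, 1783 genes passed 2-fold in either direction, 549 after thinning (273 higher, 276 lower) and 740 at a fold of 4. Against endothelial cells, 386 genes passed, 34 after thinning, 880 at a minimum of 20 UMIs, 76 at a minimum of 200 and 104 at a fold of 4. Against globin-rich cells, 64 genes passed, 9 after thinning, 22 at a minimum of 200 UMIs, 13 at a fold of 4 and 131 with all globin-rich cells. The split of these 64 turned with the rule, from 36 higher and 28 lower to 80 and 13 with globin under 0.5%, 7 and 49 with globin under 2%, 15 and 31 with at least 2 Gata1 UMIs and 18 and 33 in cells with Xist. The cause was not tested, and thinning and higher limits leave fewer genes compared by construction.

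The tdTomato share, 5.66%, was 0% when cells were thinned before the rule was applied. Of 200 values of the 20 genes named against other cells over 10 settings, none reversed and 196 stayed counted as higher or lower by the full rule on UMIs, fold and interval. The other 4 were lost after thinning with ratios still past 2-fold, among them Gfi1b (4.43), Gypc (4.38) and Klf1 (3.92, log2 ratios). Of 340 list counts 35 moved. No paired analysis was possible because each stage is 1 library and both EHF tables hold the same counts.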
